A study of Homo sapiens with 6 samples.

Results

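The genes described here are 36 genes of the ATF4 stress response and of amino acid supply: 8 transcription factors, 4 stress effectors, 9 enzymes of amino acid synthesis, 4 enzymes of mitochondrial folate metabolism, 7 amino acid transporters, and 4 other targets (2 secreted hormones, a receptor and a tRNA exporter). They were picked by gene symbol, with earlier results of these data known, and tRNA synthetases were left out. All 36 were among the 28008 genes of the deposited count table, and all 36 passed the filter on low counts, which left 14292 genes. Their RNA was measured by RNA-Seq in DU-145-DR/tet-MUC1shRNA cells. DU-145 is a human prostate cancer line, and the DR derivative was selected by prolonged growth in docetaxel (DTX). The tet-MUC1shRNA vector makes a short hairpin RNA against MUC1 when doxycycline (DOX) is present. DOX-negative cells (3 libraries) received the DMSO vehicle and DOX-positive cells (3 libraries) received 500 ng/ml DOX, and both groups share the DTX-resistant background. The treatment labels mention the hairpin for DOX-positive cultures alone and give DTX resistance for the rest, so its presence in both groups is taken from the study's description. The question was which of these genes changed with MUC1-C silencing. Cells with a control hairpin under DOX were not analysed here, so silencing and exposure to DOX, an antibiotic that also inhibits mitochondrial translation, cannot be told apart. The resistant cells are a single line, and the triplicate cultures are not described as independent experiments, so p-values measure the spread between these cultures.

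ATF4 is the main transcription factor of the integrated stress response. Kinases that sense amino acid shortage, misfolded protein in the endoplasmic reticulum (ER), viral RNA or heme loss phosphorylate the translation factor eIF2, which lowers protein synthesis in general while the ATF4 transcript is translated more. ATF4 protein then pairs with C/EBP family partners and switches on genes for amino acid import, serine and asparagine synthesis, mitochondrial folate metabolism and stress signaling. Because ATF4 is regulated mainly at translation, its own transcript is an incomplete measure of its activity. Several of these targets, among them SESN2, GDF15 and ATF3, are also known targets of p53 or of other stress pathways.

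ATF4 and its partners bind the C/EBP-ATF response element, whose core was searched here as TGATGNAA on both strands. The windows ran from 250 bases before to 50 bases after each annotated start in the RefSeq promoter table (GRCh38.p14), which held windows for 29 of the 36 genes. The core was found in 9 of these genes (ATF3, CEBPG, JDP2, CHAC1, ASNS, MTHFD1L, SLC3A2, SLC7A1 and SLC1A4). That was 31.0% of those with a window, against 4.46% of the 27305 genes in the table. A gene was counted if any of its windows held the core. The 29 genes had 49 windows and the 27305 genes 35116, so the chances to match were not equal. The 36 genes were picked as ATF4 pathway genes, so the higher share is not an independent result. A match describes letters in a window and is not shown to be a bound site. The 4 windows below are shown because the first 2 belong to classical amino acid response genes that did not pass the test and the other 2 to transcription factors that were higher with DOX. Each reads 5′ to 3′ on the strand of the gene, with the match in capitals. The match starts 68 bases before the annotated start used for that window in ASNS and 209 before it in CHAC1 (on the opposite strand). It starts 191 bases before that start in ATF3 and 42 before it in CEBPG. ASNS, ATF3 and CEBPG each have a further window, for another annotated start, that holds no match. For ATF3 this further window is chr1:212614768-212615067.
ASNS (chr7:97872359-97872658, minus strand): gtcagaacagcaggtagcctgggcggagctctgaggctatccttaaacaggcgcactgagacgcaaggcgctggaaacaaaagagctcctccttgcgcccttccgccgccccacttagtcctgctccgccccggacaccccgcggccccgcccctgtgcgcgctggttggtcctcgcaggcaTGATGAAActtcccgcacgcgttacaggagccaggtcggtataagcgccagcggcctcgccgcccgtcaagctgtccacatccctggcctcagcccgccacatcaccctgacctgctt
CHAC1 (chr15:40953221-40953520, plus strand): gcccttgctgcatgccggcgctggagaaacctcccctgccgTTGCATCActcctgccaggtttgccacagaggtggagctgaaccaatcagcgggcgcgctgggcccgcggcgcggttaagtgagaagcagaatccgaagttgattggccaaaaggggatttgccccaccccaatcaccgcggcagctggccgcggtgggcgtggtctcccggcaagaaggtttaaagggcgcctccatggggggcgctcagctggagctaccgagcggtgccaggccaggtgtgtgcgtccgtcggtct
ATF3 (chr1:212565157-212565456, plus strand): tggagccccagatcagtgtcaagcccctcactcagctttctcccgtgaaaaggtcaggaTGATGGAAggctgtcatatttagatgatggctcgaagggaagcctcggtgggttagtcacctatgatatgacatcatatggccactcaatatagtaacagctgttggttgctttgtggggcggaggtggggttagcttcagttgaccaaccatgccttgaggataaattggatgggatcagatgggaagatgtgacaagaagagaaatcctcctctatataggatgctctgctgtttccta
CEBPG (chr19:33373863-33374162, plus strand): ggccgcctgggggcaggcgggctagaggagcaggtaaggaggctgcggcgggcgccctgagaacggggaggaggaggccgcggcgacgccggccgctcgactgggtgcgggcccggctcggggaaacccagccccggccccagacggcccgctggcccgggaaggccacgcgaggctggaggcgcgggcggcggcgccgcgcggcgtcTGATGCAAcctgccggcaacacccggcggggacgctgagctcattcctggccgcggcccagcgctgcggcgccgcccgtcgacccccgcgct

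The targeted gene was checked first. MUC1 stood at 21.3, 24.8 and 19.7 CPM (counts scaled to the library size after TMM correction) in DOX-negative replicates 1 to 3 and at 3.27, 3.87 and 4.44 CPM in DOX-positive replicates 1 to 3. It fell to 17.6% of the DOX-negative level (log2 fold change -2.52, SE 0.146, edgeR adjusted p = 4.47e-11). Libraries held 15092691 to 23243713 counts, and 3 counts, taken as the detection floor, were 0.129 to 0.199 CPM. This floor covers counting error only, while the intervals below come from the edgeR fit and include the spread between cultures. The epithelial markers KRT8, KRT18, EPCAM and CDH1 were present in every library, and all 4 were higher with DOX (log2 fold changes 0.81 to 1.43). KLK3, which encodes prostate-specific antigen, had 0 counts in every library. Among 6 markers of blood and stroma, PTPRC stayed between 0 and 0.157 CPM and PECAM1 between 0 and 0.299 CPM. Of the other 4, 1 passed the test, CD68, a lysosomal protein of macrophages that epithelial lines also express. It rose with DOX, with values between 91.4 and 106 CPM without it and between 158 and 179 CPM with it.

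Of the 36 genes, 14 were higher with DOX at an edgeR adjusted p under 0.05 (38.9%, against 13.0% of all genes tested). VLDLR alone was lower (2.78%, against 13.7% of all genes tested), and 21 did not pass the test. In either direction this was 41.7% of the 36 and 26.7% of all genes tested. The median log2 fold change was 0.12, against -0.0034 over all genes tested, and 28 of the 36 had a positive sign. Most changes were small. The median size of the log2 fold change, without its sign, was 0.17 for these genes and 0.19 for all genes tested. DOX-positive libraries all lay above the DOX-negative ones for 16 genes (19.5% of all genes tested did so) and all below for 2 (20.2% of all genes tested did so). ATF3, TRIB3, SESN2, ALDH1L2 and GDF15 made up the upper end, with fold changes of 1.58 to 2.82. DOX-negative replicate 3 held the lowest DOX-negative value for 30 of the 36 genes, while it was the lowest of its group for 35.0% of all genes tested. Without that library, 11 genes were higher with DOX and the median was 0.061. Without DOX-negative replicate 2, which held the highest DOX-negative value for 19 of the 36, they were 16 and 0.21. The part of these libraries in the result was not tested further.

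**Figure D1:**
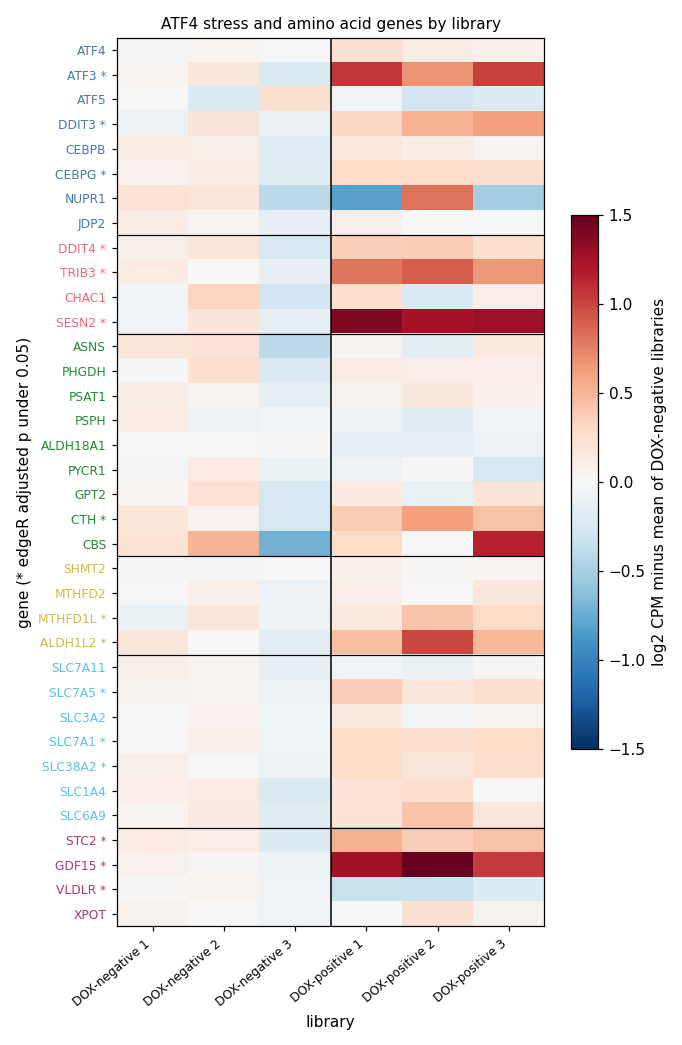
Each row is 1 of the 36 genes and each column 1 library, and the color is log2 CPM minus the mean log2 CPM of the DOX-negative libraries (red above, blue below, capped at 1.5). Rows are grouped by role as in the text and stars mark genes with an edgeR adjusted p under 0.05. SESN2, GDF15, ATF3 and TRIB3 are red in all 3 DOX-positive libraries, and DOX-negative replicate 3 is the lowest DOX-negative column for 30 of the 36 genes.

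Among the 8 transcription factors, ATF3, DDIT3 and CEBPG were higher with DOX (37.5%, against 13.0% of all genes tested). The other 5 did not pass the test, and the median log2 fold change was 0.12. ATF3, a stress-induced repressor and activator of the ATF family, was at 14.3, 15.6 and 12.0 CPM without DOX and at 29.1, 22.1 and 28.3 CPM with DOX. The groups did not overlap, and ATF3 was 1.90-fold higher (log2 fold change 0.92, SE 0.122, adjusted p = 6.95e-06). DDIT3 encodes CHOP, a factor of the later, pro-apoptotic arm of the stress response. Its DOX-negative values were 14.1, 17.1 and 13.9 CPM and its DOX-positive values 18.6, 21.5 and 22.9 CPM, again without overlap, for a 1.40-fold rise (log2 0.48, SE 0.117, adjusted p = 0.00409). DDIT3 exons overlap AC022506.1 on the same strand and MARS and MBD6 on the other, and the strand setting of the counting is not stated. MARS, the more abundant neighbor, stood at 336 to 381 CPM without and 382 to 385 CPM with DOX (log2 0.11, adjusted p = 0.190). CEBPG, a dimer partner of ATF4, measured 128, 131 and 108 CPM without and 148, 147 and 144 CPM with DOX. Every DOX-positive value lay above the DOX-negative ones, a 1.20-fold rise (log2 0.26, SE 0.0727, adjusted p = 0.00987). The CEBPG change was 0.18 (adjusted p = 0.0730) when DOX-negative replicate 3, its lowest library, was left out.

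The ATF4 transcript itself did not pass the test. It stood at 333, 345 and 337 CPM without DOX and at 396, 366 and 355 CPM with DOX, and the groups did not overlap. The 1.10-fold difference had a log2 fold change of 0.14 (95% interval 0.011 to 0.27, unadjusted p = 0.0346, adjusted p = 0.101). ATF4 has 4 annotated pseudogenes that could share reads with it. ATF5, a related factor induced by the same pathway, had a log2 fold change of -0.19 (SE 0.115, adjusted p = 0.244), and CEBPB, another C/EBP partner, one of 0.10 (SE 0.0849, adjusted p = 0.423). JDP2, a repressor that binds the same elements, was at 76.4 to 91.4 CPM in all 6 libraries (log2 0.019, adjusted p = 0.886). NUPR1, a small stress-induced nuclear protein, was low and scattered. DOX-positive replicate 2 had 4.60 CPM while replicates 1 and 3 had 1.48 and 1.82, around DOX-negative values of 1.99 to 3.03 CPM (log2 -0.012, 95% interval -0.70 to 0.68).

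Of the 4 stress effectors, SESN2, TRIB3 and DDIT4 were higher (75%, against 13.0% of all genes tested). CHAC1 did not pass the test, and the median log2 fold change of the 4 was 0.55. SESN2 (chr1:28259527-28282491, plus strand, GENCODE 29 on GRCh38) encodes sestrin 2, a leucine sensor that restrains the growth kinase complex mTORC1. It had the smallest adjusted p of the 36. Its values were 28.4, 33.8 and 26.8 CPM without DOX and 78.0, 70.3 and 72.1 CPM with DOX. The lowest DOX-positive library was above the highest DOX-negative library by far more than the spread within either group, and SESN2 was 2.48-fold higher (log2 1.31, SE 0.0898, adjusted p = 5.78e-10). TRIB3, a pseudokinase that binds AKT and feeds back on ATF4, was at 95.7, 88.5 and 80.7 CPM without and 154, 166 and 138 CPM with DOX. That was a 1.73-fold rise without overlap (log2 0.79, SE 0.0775, adjusted p = 1.05e-07). DDIT4, which encodes REDD1, another brake on mTORC1, had 52.1, 55.4 and 40.7 CPM against 62.9, 63.1 and 57.8 CPM. The rise was 1.24-fold (log2 0.31, SE 0.0946, adjusted p = 0.0176), and it lost its call without DOX-negative replicate 3 (0.19, adjusted p = 0.127) or DOX-positive replicate 1 (0.29, adjusted p = 0.0555). CHAC1 degrades glutathione and is a sensitive reporter of ATF4 activity in many cells. It was at 30.5, 39.1 and 25.7 CPM without and 36.9, 27.3 and 33.4 CPM with DOX, so the groups overlapped (log2 0.035, 95% interval -0.23 to 0.30, adjusted p = 0.874).

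SESN2, ATF3 and GDF15 are also p53 targets, so CDKN1A and MDM2, the textbook p53 targets, were read from the same fit after the values above were seen. CDKN1A, the cell cycle inhibitor p21, was at 62.3, 53.4 and 64.5 CPM without and 125, 147 and 121 CPM with DOX (log2 1.13, SE 0.0849, adjusted p = 2.28e-09). MDM2, the ubiquitin ligase of p53, was at 169, 174 and 162 CPM without and 312, 374 and 328 CPM with DOX (log2 1.00, SE 0.0693, adjusted p = 6.04e-10). Their relation to the rise of SESN2, ATF3 and GDF15 was not tested.

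**Figure D2:**
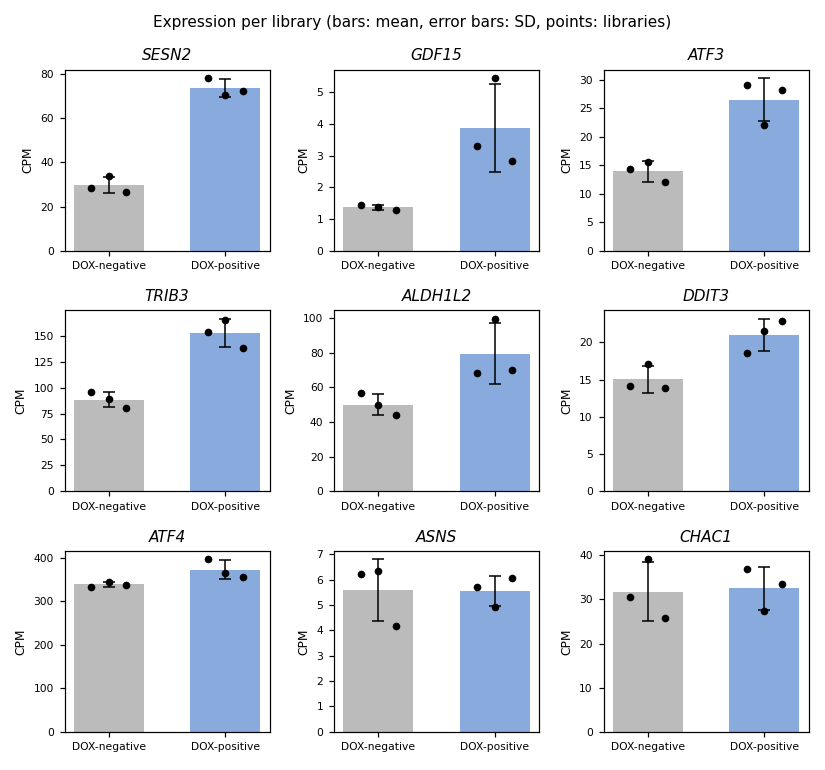
CPM of 9 genes in the DOX-negative and DOX-positive libraries, with bars for the mean, error bars for the SD and points for the 3 libraries of each group. The points of SESN2, GDF15, ATF3, TRIB3, ALDH1L2, DDIT3 and ATF4 do not overlap between groups, while those of ASNS and CHAC1 do.

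The 9 enzymes of amino acid synthesis showed 1 gene higher with DOX, CTH (11.1%, near the 13.0% of all genes tested), and 8 that did not pass the test, with a median log2 fold change of 0.060. CTH makes cysteine from cystathionine. It was at 21.5, 19.8 and 15.8 CPM without and 24.6, 28.9 and 25.5 CPM with DOX, so the groups did not overlap and the rise was 1.38-fold (log2 0.47, SE 0.114, adjusted p = 0.00371). ASNS, asparagine synthetase and a classical ATF4 target, was at 6.22, 6.34 and 4.18 CPM without and 5.71, 4.91 and 6.05 CPM with DOX. No direction could be read from it (log2 -0.0066, 95% interval -0.40 to 0.38, adjusted p = 0.985), and its counts of 84 to 131 per library limit the precision. ASNS also has 4 annotated pseudogenes that could share reads with it, and AC079781.5 overlaps its exons on the same strand. The 3 enzymes of serine synthesis did not pass the test. PHGDH, the first of them, had a log2 fold change of 0.093 (SE 0.0902, adjusted p = 0.490), which became 0.23 (adjusted p = 0.0421) when DOX-negative replicate 2 was left out and -0.010 when replicate 3 was. PSAT1, the second, was at 972, 926 and 815 CPM without and 939, 1014 and 948 CPM with DOX (log2 0.096, adjusted p = 0.332). PSPH, the last, had a log2 fold change of -0.11 (adjusted p = 0.307). In proline synthesis, ALDH18A1 was at 60.5 to 61.5 CPM without and 55.6 to 57.3 CPM with DOX, all lower but not called (log2 -0.12, adjusted p = 0.258), and PYCR1 had -0.096 (adjusted p = 0.431). GPT2, the mitochondrial alanine transaminase, had 0.060 (adjusted p = 0.710). CBS, the enzyme before CTH in the same pathway, was at 0.348 to 1.28 CPM, which left its log2 fold change at 0.44 with a 95% interval from -0.51 to 1.38. Its near-identical copy CBSL had 0 to 3 counts per library.

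Mitochondrial folate enzymes break serine down to glycine and formate. Of the 4, ALDH1L2 and MTHFD1L were higher with DOX (50%, against 13.0% of all genes tested). The median log2 fold change was 0.19. ALDH1L2, which oxidizes formyl-tetrahydrofolate and yields NADPH, was at 56.6, 49.6 and 44.2 CPM without and 68.3, 99.7 and 70.3 CPM with DOX. DOX-positive replicate 2 stood well above the other two, yet each DOX-positive library exceeded every DOX-negative one (1.58-fold, log2 0.66, SE 0.115, adjusted p = 0.000164). Without that library the log2 fold change was 0.47 (adjusted p = 0.000392). MTHFD1L, which releases formate, had 28.8, 35.0 and 29.5 CPM against 34.3, 41.6 and 38.0 CPM. These groups overlapped, and the rise of 1.22-fold was close to the threshold (log2 0.29, SE 0.0976, adjusted p = 0.0333). The MTHFD1L call was lost without DOX-negative replicate 1 or 3 or DOX-positive replicate 2 or 3 (adjusted p 0.0752 to 0.154). SHMT2 and MTHFD2, which start the pathway, had log2 fold changes of 0.043 (SE 0.0606, adjusted p = 0.649) and 0.087 (SE 0.0647, adjusted p = 0.351).

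Among the 7 amino acid transporters, SLC7A1, SLC7A5 and SLC38A2 were higher (42.9%, against 13.0% of all genes tested). Their rises had a narrow range of 1.18 to 1.21-fold, and the median log2 fold change over the 7 was 0.24. SLC7A1, the importer of arginine and lysine, was at 412, 435 and 395 CPM without and 502, 489 and 510 CPM with DOX (log2 0.27, SE 0.0605, adjusted p = 0.00174). SLC7A5, the large neutral amino acid exchanger, had 519, 517 and 472 CPM against 647, 571 and 595 CPM (log2 0.27, SE 0.0652, adjusted p = 0.00413). SLC38A2, a sodium-coupled importer of small neutral amino acids, was at 1657, 1551 and 1473 CPM without and 1880, 1772 and 1869 CPM with DOX (log2 0.24, SE 0.0652, adjusted p = 0.00916). None of the 3 overlapped between the groups (19.5% of all genes tested were higher in every DOX-positive library). SLC7A5 has 2 annotated pseudogenes, and SLC7A5P2, at 4.39 to 6.72 CPM, did not pass the test (log2 -0.25, adjusted p = 0.353). SLC3A2, the heavy chain that SLC7A5 and SLC7A11 share, had 0.059 (SE 0.0658, adjusted p = 0.557). SLC7A11, the cystine importer that feeds glutathione synthesis, was at 580, 563 and 505 CPM without and 530, 508 and 556 CPM with DOX (log2 -0.048, 95% interval -0.18 to 0.088, adjusted p = 0.637). SLC6A9, a glycine importer, was higher in every DOX-positive library (25.1 to 31.4 against 32.1 to 38.3 CPM) but missed the threshold (log2 0.27, SE 0.100, adjusted p = 0.0512), and SLC1A4, an importer of serine and alanine, had 0.15 (adjusted p = 0.226).

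GDF15 and STC2 encode secreted hormones, and both rose. GDF15 (chr19:18374731-18389176, plus strand), a stress hormone of the TGF-β family, showed the largest fold change of the 36 genes from a low level. It was at 1.43, 1.38 and 1.29 CPM without and 3.31, 5.43 and 2.82 CPM with DOX, from 26 or 27 counts in each DOX-negative library and 42 to 104 in the DOX-positive ones. DOX-positive replicate 2 was the highest, and the groups did not overlap (2.82-fold, log2 1.50, SE 0.281, adjusted p = 0.000376). Without that library the log2 fold change was 1.17 (adjusted p = 0.00416). STC2, a glycoprotein induced by ER and oxidative stress, was at 323, 317 and 255 CPM without and 429, 383 and 399 CPM with DOX, a rise of 1.35-fold (log2 0.44, SE 0.0771, adjusted p = 0.000221). VLDLR, a lipoprotein receptor, was the single gene that fell. Its values of 64.7, 66.0 and 61.7 CPM without DOX lay above the 50.9, 50.8 and 55.7 CPM with DOX, so the level fell to 81.8% (log2 -0.29, SE 0.0760, adjusted p = 0.00651). VLDLR-AS1 overlaps its exons on the other strand. XPOT, which exports tRNA from the nucleus, was at 576 to 619 CPM without and 597 to 697 CPM with DOX (log2 0.096, adjusted p = 0.309).

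**Figure D3:**
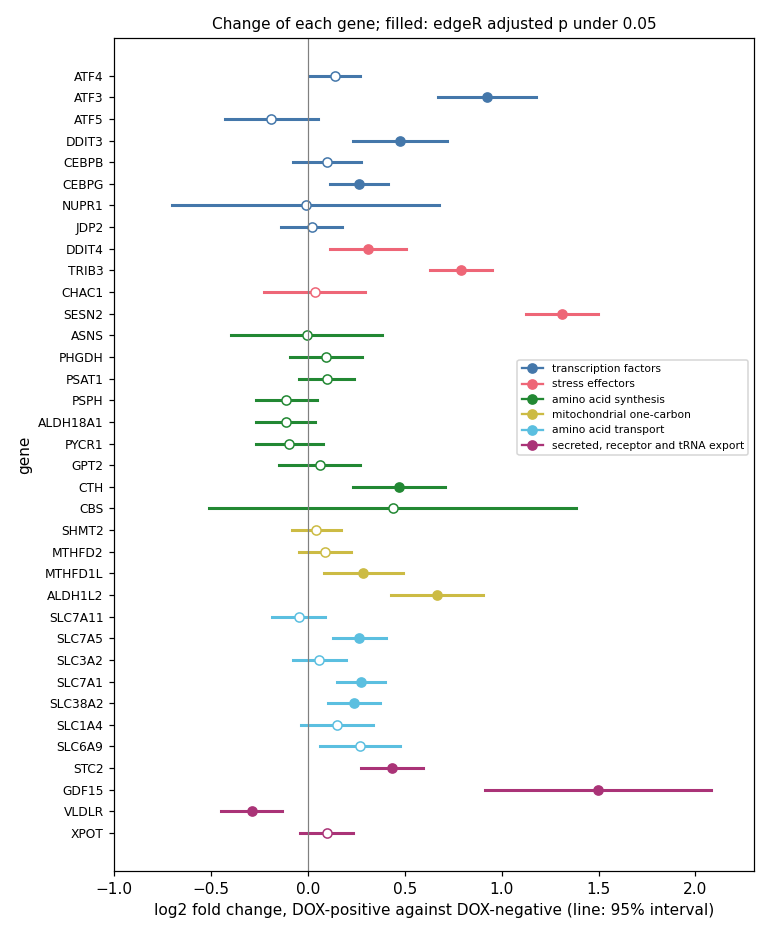
Log2 fold change of each of the 36 genes (points) with its 95% interval from the edgeR fit (lines), colored by role, with filled points for an adjusted p under 0.05. Intervals of NUPR1, CBS and GDF15 are the widest, and those of most synthesis enzymes span 0.

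Levels were compared between genes on deposited TPM values, which account for length, rescaled after leaving out 5 short noncoding RNAs that took 34.4% to 64.4% of the TPM. On this scale the means in DOX-negative cells ran from 1182 ± 131 (SD, n = 3) for PSAT1 to 0.234 ± 0.0966 for CBS. After PSAT1 came SLC38A2 (874 ± 67.5), ATF4 (500 ± 18.6), MTHFD2 (485 ± 40.1) and SLC7A5 (303 ± 23.1). ATF4 and MTHFD2 did not differ beyond their spread, nor did STC2, SLC7A11 and SLC7A1, which all lay between 151 and 152. ASNS ranked 34 of 36 at 5.29 ± 1.26, while the serine enzymes PSAT1, PHGDH (113 ± 21.4) and PSPH (95.6 ± 7.67) were abundant. With DOX, SESN2 went from 23.6 ± 3.46 to 57.3 ± 2.38 and ATF3 from 15.9 ± 2.47 to 29.6 ± 4.04, which left both below the DOX-negative level of TRIB3 (87.4 ± 9.07). The 5 genes with the largest fold changes had DOX-negative levels of 3.16 to 87.4, and the 6 most abundant genes had log2 fold changes of 0.087 to 0.27.

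**Figure D4:**
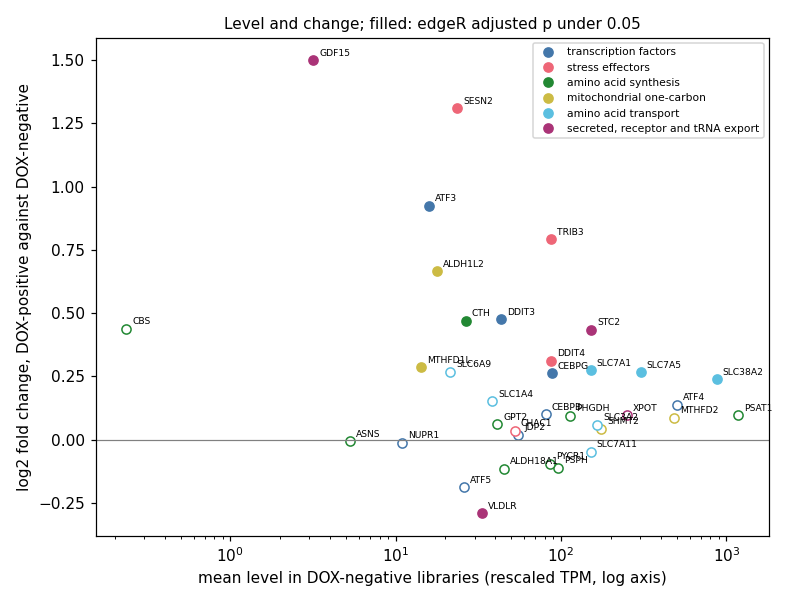
Log2 fold change of each gene (vertical axis) against its mean level in DOX-negative libraries in rescaled TPM (horizontal log axis), colored by role and filled for an edgeR adjusted p under 0.05. GDF15 and SESN2 sit at the top at low to middling levels, PSAT1 at the far right near 0, and ASNS and CBS at the left unfilled.

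Upstream of ATF4, a list of 8 eIF2 kinases, sensors and their regulators was read. EIF2AK4 and IMPACT, the latter not itself a kinase or sensor, were higher (25%, against 13.0% of all genes tested). OMA1 was lower (12.5%, near the 13.7% of all genes tested). EIF2AK4 alone was higher when any single DOX-negative library or DOX-positive replicate 2 was dropped. IMPACT also lost its call with the replicate block, with library totals, with thinned counts and on TPM, which again left EIF2AK4 alone. EIF2AK4, the kinase that senses uncharged tRNA, rose from 233, 241 and 247 CPM to 309, 291 and 313 CPM (log2 0.34, SE 0.0606, adjusted p = 0.000213). OMA1, the mitochondrial protease that starts the relay from damaged mitochondria to eIF2, fell from 22.4, 21.8 and 25.2 CPM to 11.9, 15.6 and 10.6 CPM (log2 -0.86, SE 0.127, adjusted p = 2.58e-05). Of the 10 subunits and regulators of eIF2, 3 were higher (30.0%, against 13.0% of all genes tested) and 7 did not pass the test. These 3 were PPP1R15A and the eIF2 subunits EIF2S1 and EIF2S2, but dropping any single library left 1 or 2 of them. With the replicate block EIF2S1 and EIF2S2 had adjusted p-values of 0.0933 and 0.0749, and both calls were also lost with library totals and on TPM. The largest change was in PPP1R15A, the ATF4-induced phosphatase subunit that reverses eIF2 phosphorylation, which rose from 75.9, 83.0 and 80.3 CPM to 120, 105 and 112 CPM (log2 0.49, SE 0.0717, adjusted p = 2.24e-05). For both OMA1 and PPP1R15A the groups did not overlap.

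Further amino acid enzymes, 12 of 14 tested, had 7 higher (58.3%, against 13.0% of all genes tested). That count was 4 when DOX-negative replicate 3 was dropped. In this list 1 gene was lower (8.33%, against 13.7% of all genes tested), and the median log2 fold change was 0.32. SRR, which makes D-serine, rose, with 7.47 to 10.4 CPM without and 13.5 to 18.8 CPM with DOX (log2 0.79, SE 0.146, adjusted p = 0.000315), and ASS1, which makes argininosuccinate, fell, with 11.8 to 12.9 CPM without and 6.19 to 8.93 CPM with DOX (log2 -0.79, SE 0.147, adjusted p = 0.000375). The other 11 amino acid transporters tested had 1 higher (9.09%, under the 13.0% of all genes tested) and 3 lower (27.3%, against 13.7%). Their median was -0.15. SLC38A1, a relative of SLC38A2, rose (log2 0.26, SE 0.0629, adjusted p = 0.00362) and SLC43A2, a neutral amino acid transporter, fell (log2 -0.52, SE 0.167, adjusted p = 0.0247). The SLC43A2 call was lost on TPM, and when replicate 1 (adjusted p = 0.133) or 2 (0.0508) of the DOX-negative cells or replicate 3 of the DOX-positive cells (0.0955) was dropped. Dropping the first or the last of these also took the count of lower transporters from 3 to 1. Of further genes of the folate and methionine cycles, 15 were tested. Higher was 1 (6.67%, under the 13.0% of all genes tested) and lower were 2 (13.3%, near the 13.7%). MTR, methionine synthase, rose (log2 0.27, SE 0.0722, adjusted p = 0.00727), and GLDC, of the glycine cleavage system, fell (log2 -0.40, SE 0.121, adjusted p = 0.0175). Both calls were lost when DOX-positive replicate 3 was left out (adjusted p = 0.0663 and 0.0818). That of MTR was also lost on TPM and when DOX-negative replicate 1 was dropped (0.0569), and that of GLDC when DOX-negative replicate 3 was dropped (0.0537). MAT2B, the other lower gene of this list (log2 -0.32, SE 0.0691, adjusted p = 0.00155), kept its call with each library left out (adjusted p 0.00218 to 0.0145). The 12 genes of ER folding showed 7 higher (58.3%, against 13.0% of all genes tested). The other 5 did not pass the test, and the median was 0.23. The count of 7 became 3 when DOX-negative replicate 3 or DOX-positive replicate 1 or 3 was dropped, and 4 when DOX-negative replicate 1 was dropped, with the replicate block, with library totals or on TPM. ERN1, the ER stress sensor IRE1, changed most among them, with 30.3 to 36.0 CPM without and 45.0 to 52.3 CPM with DOX (log2 0.53, SE 0.0896, adjusted p = 0.000125). Over all 68 genes tested in these lists, 21 were higher (30.9%, against 13.0% of all genes tested) and 7 lower (10.3%, under the 13.7% of all genes tested). The first count was 12 when replicate 1 or 3 of the DOX-negative cells or replicate 3 of the DOX-positive cells was left out, and the second was 4 in the last case.

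**Figure D5:**
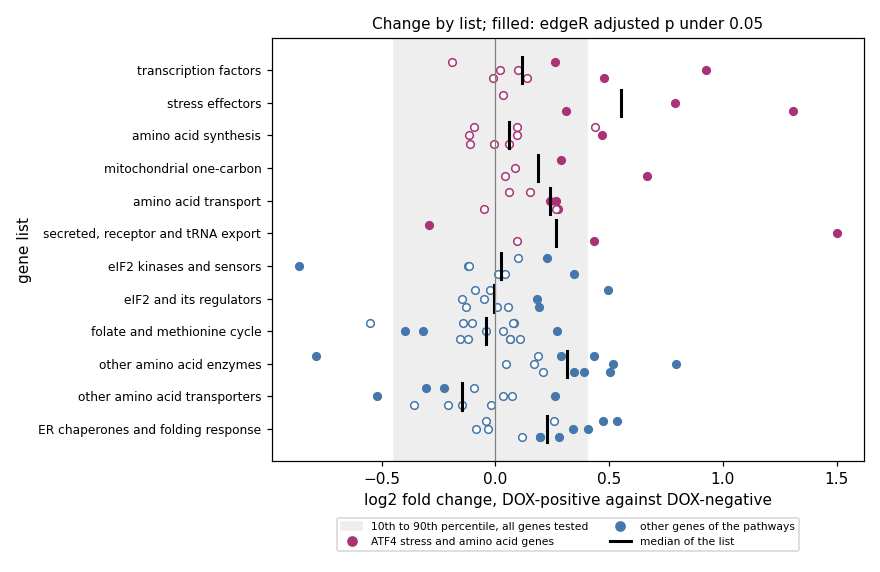
Log2 fold change of each gene by list, for the 6 roles of the 36 genes (purple) and 6 lists of other pathway genes (blue), filled for an edgeR adjusted p under 0.05, with a black bar at each list's median and gray shading from the 10th to the 90th percentile of all genes tested. Stress effectors have the highest median (0.55), and the other amino acid transporters the lowest (-0.15).

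Promoter matches and changes were set side by side. Of the 9 genes with the core TGATGNAA, 4 were higher (ATF3, CEBPG, MTHFD1L and SLC7A1) and 5 did not pass the test, with a median log2 fold change of 0.15. Of the 20 genes with a window and no match, 9 were higher, 1 was lower and 10 did not pass the test, with a median of 0.25. SLC7A1 and ASNS both carry the match on the strand of the gene and stood at log2 fold changes of 0.27 and -0.0066. The match begins at base 8 in SLC7A1, with the start itself as base 1, and 68 bases before the start in ASNS. No match says only that these letters are not in the window.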

How the data were processed

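Total RNA from triplicate cultures was made into stranded mRNA libraries (TruSeq Stranded mRNA) by the authors. Groups came from the sample titles. The deposited count table holds whole-number read counts for 28008 genes, and the deposited TPM table holds TPM values for 25546 genes. The submitters' processing notes name STAR, DESeq2 and the build GRCh38/hg38. The read counter and its strand setting are not given in the sources used here. Without strand, reads of a gene and of an antisense neighbor cannot be told apart. By GENCODE 29, 13 of the 36 genes have an antisense exon overlap, 4 a same-strand overlap and 7 a named pseudogene.

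The main test used edgeR 4.0.16 (R 4.3.3): filterByExpr, TMM factors (0.986 to 1.03), and glmQLFit with glmQLFTest, two-sided, with Benjamini-Hochberg adjustment over all 14292 genes tested and a threshold of 0.05. SEs were taken from the fold change and its F statistic (size of the log2 value over root F). CPM use TMM-scaled library sizes. Alternatives were DESeq2 1.42.0, RLE factors, library totals, a replicate block, no filter, a minimum of 10 counts per library, thinning to the smallest depth, limma 3.58.1 on log2(rescaled TPM + 1) and log2(rescaled TPM + 0.1), and each library left out in turn. The edgeR, DESeq2 and limma fits were also run on simulated counts of independent libraries, which does not measure their error in these data. Same-group libraries had a chi-square per degree of freedom of 3.79 to 20.4 against each other, above sampling noise. Each library was counted as 1 replicate, but this spread cannot show whether the cultures were independent experiments.

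The members and lists were chosen with earlier results of these data known. Every member was named. In each other list the called gene with the largest change in each direction was named. CDKN1A, MDM2, MARS, CBSL, SLC7A5P2, IMPACT, EIF2S1, EIF2S2 and MAT2B were named after their values were seen. A marker gene is not reported here.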

Additional observations from a re-analysis of the deposited data

How the results depend on the processing

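All 14 member rises and the VLDLR fall kept their direction in every one of the 15 alternatives. The count of members called higher was 11 to 16 and of those called lower 1 throughout. It was 14 with the replicate block, with DESeq2 and with thinned counts, and 11 on each TPM scale. The members' median log2 fold change ran from 0.061 to 0.21 with a library left out. Calls over all genes ranged from 2784 to 3645 with a library left out and from 3097 to 4004 otherwise (3158 with the replicate block). Calls lost apart from left-out libraries were CEBPG and DDIT4 on TPM, and MTHFD1L on TPM and with library totals (adjusted p = 0.0696). SLC6A9 passed with RLE factors (adjusted p = 0.0475), with no filter (0.0332), and when DOX-negative replicate 2 (0.0275) or DOX-positive replicate 3 (0.0499) was left out. Genes near 0 changed sign: JDP2 was -0.017 with library totals, -0.0036 on log2(TPM + 1) and -0.0036 on log2(TPM + 0.1), and CHAC1 was -0.0027 with library totals. With a library left out, NUPR1 ran from -0.70 to 0.31, JDP2 from -0.052 to 0.073, CHAC1 from -0.097 to 0.21, ASNS from -0.18 to 0.099, PHGDH from -0.010 to 0.23 and GPT2 from -0.060 to 0.18. In the other pathway lists, 13 genes were higher with library totals, 12 on each TPM scale, 14 with the replicate block and 12 to 21 with a library left out, and 4 to 7 were lower with a library left out. The cause was not tested. Same-numbered libraries did not deviate together (correlations -0.0189, -0.095 and -0.0273), so the numbers are not taken to pair the samples, and the block changed no member's call. Depth limits CBS, GDF15, NUPR1 and ASNS most.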
